A study of Mus musculus with 70 samples.

Results

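ST2+ CD44hi regulatory T cells (Tregs) of the blood were compared with ST2+ CD44hi Tregs of the spleen. The libraries were those whose labels named these populations and whose column held more than 1000000 counts, which gave 4 of 5 blood libraries (mice 2 to 5) and 5 of 5 spleen libraries (mice 1 to 5), 9 of the 67 libraries kept from 70. The fifth blood library, from mouse 1, held 488666 counts from 66 sorted cells and was left out. Both populations came from the same untreated male Foxp3-YFP-cre mice, whose allele is Foxp3tm4(YFP/icre)Ayr, aged 16.6 to 18.6 weeks, in which YFP and Cre are expressed from the Foxp3 locus, so that Tregs were sorted by a reporter and not by staining for Foxp3 protein. Blood was drawn from the heart and spleens were disrupted mechanically, and red cells were lysed in both. Spleen cells were enriched for CD4+ T cells on magnetic columns before the sort and blood cells were not, so tissue and enrichment cannot be told apart. Each library was a bulk pool of at most 220 sorted cells, in which fewer cells of a type and less RNA per cell cannot be told apart.

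ST2, encoded by Il1rl1, is the receptor for the alarmin IL-33 and marks Tregs of barrier and adipose tissues. CD44hi Tregs are antigen-experienced cells, and those in blood are in transit between organs. Lymphocytes leave lymphoid organs along a gradient of sphingosine 1-phosphate that they sense through S1PR1, whose gene is a target of the transcription factor KLF2, whereas stimulation through the T cell receptor switches on immediate early genes and NF-kB targets.

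The blood libraries held 1807002 to 2249479 counts and the spleen libraries 1852476 to 2625746. Mice 4 and 5 gave 220 blood cells each and mouse 2 gave 202, but the blood library of mouse 3 was made from 55 cells, and 220 cells were sorted for every spleen library. Between 12385 and 15321 genes had a count in blood and between 14354 and 15602 in spleen. The level of a gene is given as TMM-normalised CPM, the counts of a gene scaled to a common library size, which depends on transcript length and is compared only between samples of 1 gene. Values stand in the order of mice 2, 3, 4 and 5 for blood and mice 1 to 5 for spleen.

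The libraries carried the markers of the sort. Foxp3, the lineage-defining transcription factor of Tregs, was at 124, 160, 143 and 139 CPM in blood and 138, 214, 176, 168 and 131 CPM in spleen, and the ranges overlapped. Il1rl1 was at 572, 531, 507 and 476 CPM in blood and 230, 264, 317, 261 and 301 CPM in spleen, so every blood library lay above every spleen library. The difference was not called in the main fit (log2 fold change 0.93 ± 0.39, adjusted p = 0.174). Under 23 alternative settings the adjusted p of Il1rl1 lay between 7.37e-05 and 0.605, so Il1rl1 is not shown to be equal. Cd3e, Cd3g, Cd4, Ptprc, Cd44, Ctla4 and Ikzf2 were not called either. Of the 11 genes that define T cells and the sort, Thy1 was higher in blood and Il2ra was lower. Thy1 (adjusted p = 0.123) lost the call in the 9-library fit with each mouse as a block. Other cell types were low but not wholly absent. The 12 B cell markers summed to 59.9 to 183 CPM in blood and 83.5 to 186 CPM in spleen, with 7 of them at 0 in every blood library and 5 in every spleen library, Ms4a1 and Pax5 in both. The 10 neutrophil markers summed to 2.66 to 54.3 CPM in blood and 0.353 to 31.8 CPM in spleen, with 7 and 8 at 0, S100a8 and Csf3r in both. The 8 NK and CD8 T cell markers summed to 12.7 to 38.8 CPM in blood and 22.2 to 48.5 CPM in spleen, with 7 and 5 at 0, Cd8a and Ncr1 in both. The 11 dendritic cell and MHC class II markers summed to 206 to 458 CPM in blood and 264 to 429 CPM in spleen. Of these, 5 and 5 were at 0, Flt3, Itgax, Siglech, Clec9a and Cd209a in both.

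Transcripts of platelets were present in every blood library. The summed red cell markers stood above the spleen range in the blood of mice 3, 4 and 5 but not in that of mouse 2. The 10 platelet markers summed to 276, 959, 641 and 658 CPM in the blood libraries and to 0 to 7.96 CPM in the spleen libraries. Pf4, a platelet chemokine, was at 83.01, 149, 88.01 and 126 CPM in blood and 3.03, 0, 0, 0 and 0 CPM in spleen. Ppbp, a further platelet chemokine, was at 89.9, 226, 159 and 151 CPM in blood and 3.79, 0, 0, 0 and 0 CPM in spleen. All 4 blood libraries therefore carried platelet RNA, that of mouse 2 the least and that of mouse 3 the most, and Gp9, Tubb1, Treml1 and Clec1b were at 0 in all 5 spleen libraries. The 10 erythroid markers summed to 183, 220, 592 and 620 CPM in blood and 136 to 192 CPM in spleen, with Hbb-bs and Hbb-bt, near-identical beta globin genes whose reads may be shared, highest in mice 4 and 5. The platelet sum differed likewise in ST2- CD44hi Tregs, at 103 to 388 CPM in blood and 0 to 2.81 CPM in spleen. Their erythroid sum was 116, 162, 147, 716 and 813 CPM in blood (mice 1 to 5) and 160 to 202 CPM in spleen. Gng11, Myl9, Clu and Vwf, further genes known from platelets and named here after their values were seen, were DEGs with no count in any spleen library. Vwf (adjusted p = 0.183) lost the call in the 9-library fit with each mouse as a block. Vwf lost it without the blood library of mouse 3, or the spleen library of mouse 1, 2, 3 or 5 (adjusted p = 0.0534 to 0.0595). Lyz2, the lysozyme of myeloid cells, was at 48.96, 130, 74.2 and 115 CPM in blood and 0, 0, 0, 0.516 and 11.6 CPM in spleen, and the 16 monocyte and macrophage markers summed to 53.7 to 134 CPM in blood and 18.7 to 37.5 CPM in spleen, with 11 and 10 at 0, Csf1r and Adgre1 in both. Zbtb46, a factor of dendritic cells, was at 0, 0, 0 and 1.81 CPM in blood and 20.1, 31.9, 24.98, 29.4 and 10.9 CPM in spleen. It was the 1 DEG among the 11 dendritic cell and MHC class II markers. Flt3, Itgax, Siglech, Clec9a and Cd209a of that list had no count in either group. Zbtb46 (adjusted p = 0.111) lost the call in the 9-library fit with each mouse as a block. What part these transcripts had in other differences was not tested.

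**Figure D1:**
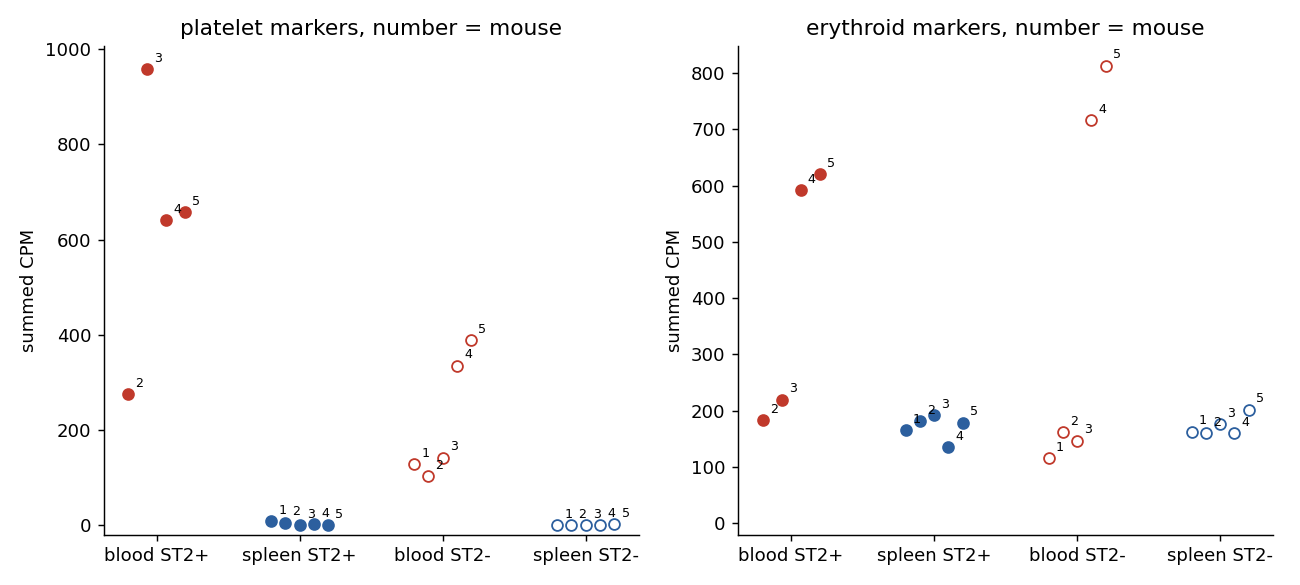
Summed level in CPM of 10 platelet markers (left) and 10 erythroid markers (right) in each ST2+ (filled) and ST2- (open) CD44hi Treg library of blood (red) and spleen (blue), with the number of the mouse beside each point. The platelet sum lay between 276 and 959 in the 4 blood ST2+ libraries and at or below 7.96 in the spleen, and the erythroid sum was raised in the blood of mice 4 and 5.

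Differentially expressed genes (DEGs) had to differ 1.5-fold or more with an adjusted p (Benjamini-Hochberg, over all 13173 genes tested) no higher than 0.05 in edgeR's quasi-likelihood test. Blood and spleen ST2+ Tregs differed by 542 DEGs, 4.11% of the genes tested, of which 261 (1.98%) were higher and 281 (2.13%) lower in blood. The 4 blood and 5 spleen libraries did not overlap for 198 of the 261 and 221 of the 281. Among all genes tested, the groups did not overlap for 4.14% with blood higher and 4.95% with blood lower. Of the 13173 genes, 5557 had a positive and 6942 a negative fold change, the background for the counts by sign given below. The DEGs lower in blood differed by more, with a median log2 fold change of -1.99 against 0.99 for those higher in blood, and the median over all genes was -0.05. In 46 of the lower DEGs no blood library had a count, and in 27 of the higher DEGs no spleen library had one. When the 9 libraries were fitted alone with each mouse as a block, 153 DEGs were called. Without the 55-cell blood library of mouse 3, 349 were called. Voom with quality weights and limma, the method of the study, called 738, a term for the number of sorted cells left 339, and 608 were called over all 70 libraries. Where 1 of these settings or leaving out 1 library ended the call of a gene described here, the adjusted p, or the fold change where that fell short, stands in a paragraph on that gene.

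**Figure D2:**
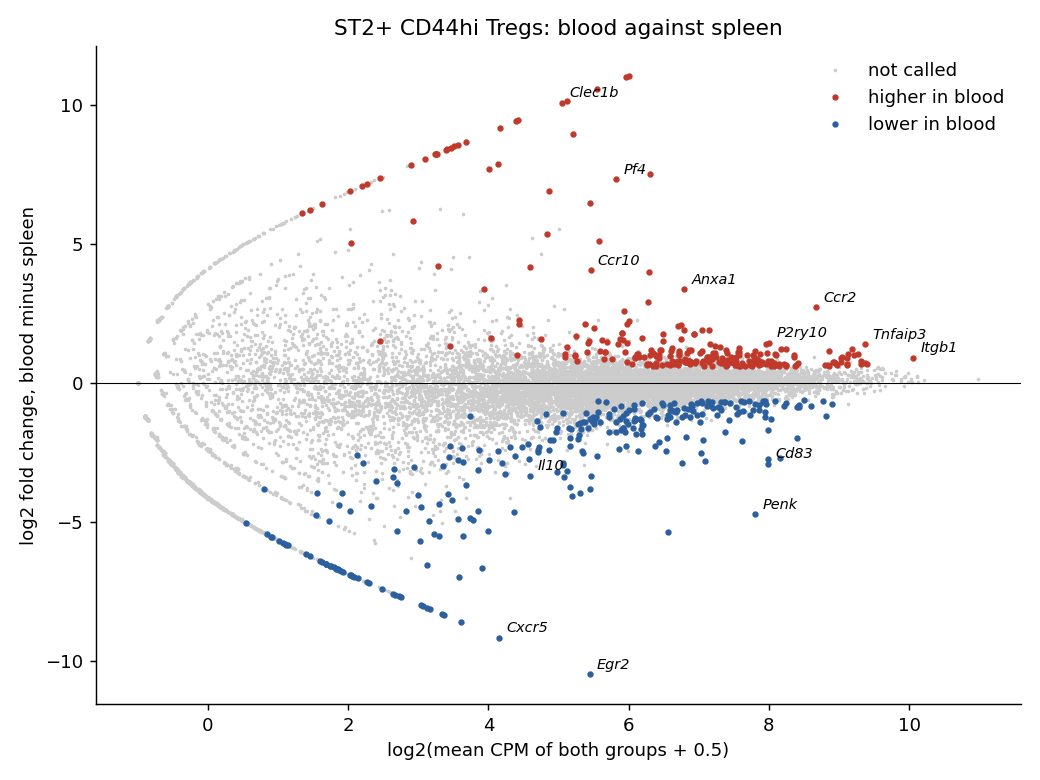
Log2 fold change of blood over spleen (y axis) against the log2 of the mean level of both groups (x axis, CPM plus 0.5) for each of 13173 genes in ST2+ CD44hi Tregs, with DEGs higher in blood in red and lower in blue. The 281 lower DEGs reach further from 0 than the 261 higher DEGs, apart from platelet genes such as Pf4 and Clec1b at the top; the curved edges are genes with no count in 1 of the groups.

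The DEGs with the smallest adjusted p among those without overlap were, on the blood side, Gpcpd1, P2ry10, Tnfaip3, Crlf3, Rnf125, Sgms1, Tmem64, Apbb1ip, Ubl3, Anxa1, Cited2 and Cytip. Gpcpd1, an enzyme of glycerophosphocholine breakdown, was at 301, 277, 258 and 240 CPM in blood and 111, 121, 105, 130 and 94.9 CPM in spleen (log2 fold change 1.26 ± 0.15, adjusted p = 2.78e-08). The lowest blood library stood at 240 CPM and the highest spleen library at 130 CPM. Rnf125, a ubiquitin ligase, was at 270, 177, 225 and 154 CPM in blood and 75.02, 77.4, 64.00, 105 and 73.7 CPM in spleen (log2 fold change 1.39 ± 0.19, adjusted p = 8.51e-07). Apbb1ip, the RIAM adaptor that links the GTPase RAP1 to integrin activation, was at 254, 323, 274 and 250 CPM in blood and 99.7, 144, 161, 155 and 128 CPM in spleen (log2 fold change 1.001 ± 0.15, adjusted p = 9.28e-06). Cytip, which binds cytohesins and regulates adhesion, was at 946, 848, 852 and 699 CPM in blood and 457, 534, 511, 572 and 519 CPM in spleen (log2 fold change 0.69 ± 0.11, adjusted p = 1.21e-05). Both adhesion regulators were higher in every blood library than in any spleen library. The other members of the group rose by 0.73 (Crlf3), 1.21 (the sphingomyelin synthase Sgms1), 1.04 (Tmem64), 0.69 (Ubl3) and 1.57 (the transcriptional coregulator Cited2) on the log2 scale. Ubl3 (adjusted p = 0.0553) lost the call in the 9-library fit with each mouse as a block. Ubl3 (log2 fold change 0.57, under the fold minimum) lost the call under voom, Ubl3 (log2 fold change 0.55, under the fold minimum) with the term for cell number, and Crlf3 (adjusted p = 0.339), Sgms1 (0.0915) and Ubl3 (0.132) with all 70 libraries.

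Of 16 genes of recirculation and egress tested, 7 were higher in blood and none was lower, with a median log2 fold change of 0.62, and 5 of the 7 did not overlap between the groups. S1pr1, the sphingosine 1-phosphate receptor that guides egress, was at 798, 768, 769 and 659 CPM in blood and 305, 433, 337, 348 and 418 CPM in spleen (log2 fold change 1.02 ± 0.20, adjusted p = 6.37e-04). Klf2 was at 301, 378, 333 and 356 CPM in blood and 177, 167, 162, 174 and 124 CPM in spleen (log2 fold change 1.09 ± 0.17, adjusted p = 2.29e-05). Klf3, a repressor of the same family, was at 712, 689, 783 and 696 CPM in blood and 325, 421, 383, 364 and 450 CPM in spleen (log2 fold change 0.89 ± 0.22, adjusted p = 0.00976). For all 3 the lowest blood library exceeded the highest spleen library. P2ry10, a receptor for lysophospholipids on lymphocytes, was at 561, 300, 352 and 283 CPM in blood and 89.04, 168, 138, 133 and 161 CPM in spleen (log2 fold change 1.44 ± 0.17, adjusted p = 2.78e-08). The blood library of mouse 2 was the highest and the spleen library of mouse 1 the lowest. Ltb4r1, the leukotriene B4 receptor, was at 81.95, 45.8, 121 and 170 CPM in blood and 7.58, 7.51, 20.3, 52.7 and 25.4 CPM in spleen (log2 fold change 2.22 ± 0.49, adjusted p = 0.00290), with the spleen library of mouse 4 above the blood library of mouse 3. S1pr4 (log2 fold change 1.16 ± 0.32, adjusted p = 0.0226) and Gpr132 (log2 fold change 1.54 ± 0.36, adjusted p = 0.00470), receptors for sphingosine 1-phosphate and for oxidised fatty acids, were called too. In the 9-library fit with the mouse as a block 4 of the 16 genes were called. Ltb4r1 (adjusted p = 0.0870), S1pr4 (0.0549) and Gpr132 (0.103) lost the call in the 9-library fit with each mouse as a block. Gpr132 (adjusted p = 0.0522) lost the call under voom, and S1pr4 (adjusted p = 0.0928) with the term for cell number. S1pr4 lost it without the blood library of mouse 3, or the spleen library of mouse 1 or 5 (adjusted p = 0.0539 to 0.112). ST2- Tregs also had 7 of these 16 genes higher in blood.

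**Figure D3:**
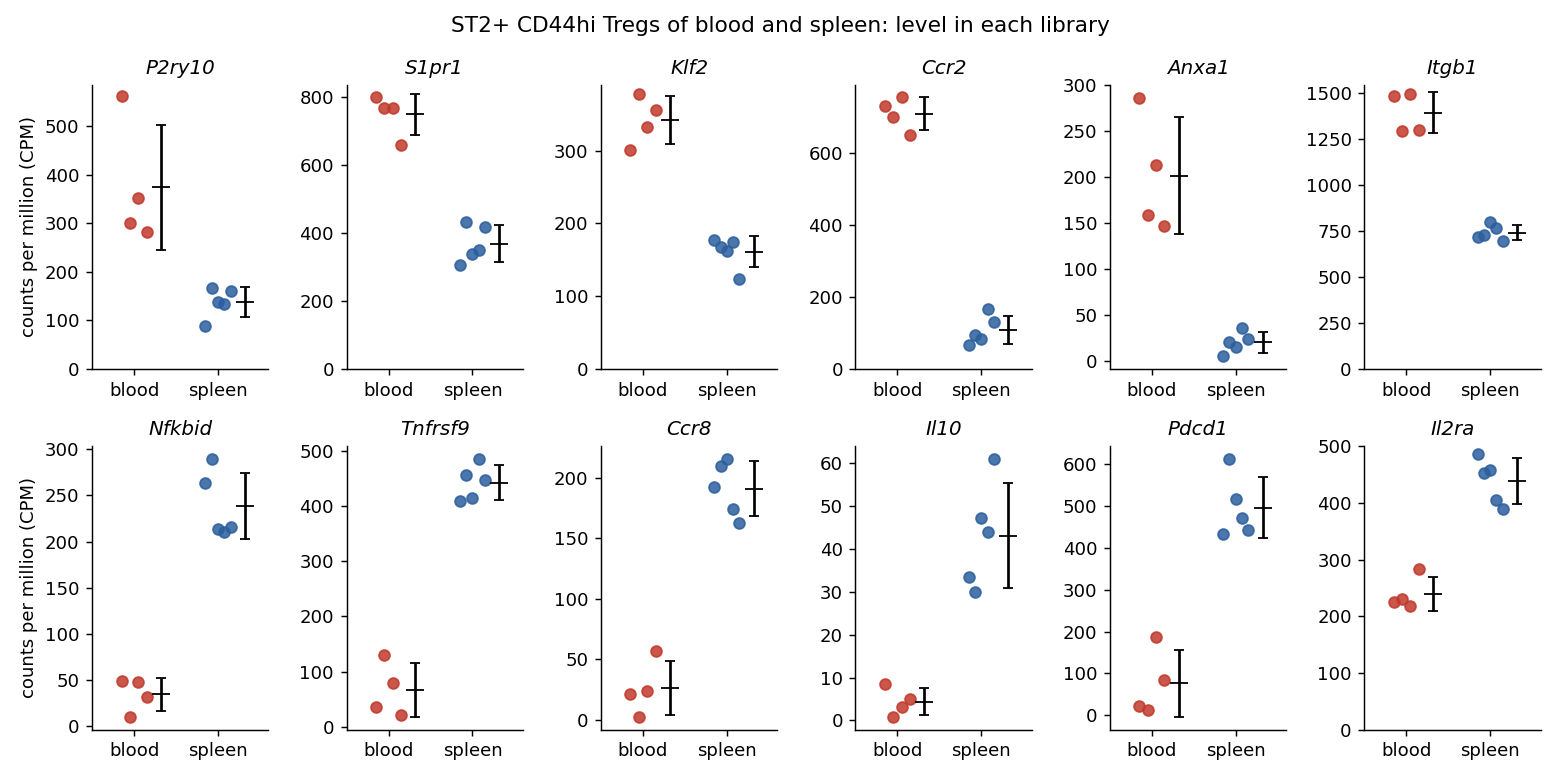
Level in CPM in each ST2+ CD44hi Treg library of blood (red, n = 4) and spleen (blue, n = 5) for 12 genes, with the mean and SD as black bars. The upper 6 genes were higher and the lower 6 lower in every blood library than in any spleen library.

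Of 20 genes of S100 proteins, annexins, galectins and their partners, 8 were DEGs higher in blood and none was lower, 18 had a positive fold change, and the median was 0.62. Anxa1, annexin A1, a phospholipid-binding protein with anti-inflammatory activity, was at 286, 159, 213 and 147 CPM in blood and 4.93, 20.2, 14.4, 35.1 and 23.99 CPM in spleen (log2 fold change 3.37 ± 0.52, adjusted p = 9.35e-06). Lgals3, galectin-3, was at 113, 166, 161 and 226 CPM in blood and 15.5, 42.7, 21.9, 95.01 and 27.9 CPM in spleen (log2 fold change 2.05 ± 0.44, adjusted p = 0.00191). Lgals1, galectin-1, was at 353, 290, 317 and 360 CPM in blood and 184, 220, 148, 228 and 173 CPM in spleen (log2 fold change 0.79 ± 0.17, adjusted p = 0.00219). None of the 3 overlapped, and Anxa1 differed most. Vim, which encodes the filament protein vimentin (log2 fold change 0.66 ± 0.12, adjusted p = 2.91e-04), Crip1 (log2 fold change 0.93 ± 0.16, adjusted p = 1.17e-04), Ahnak (log2 fold change 0.95 ± 0.23, adjusted p = 0.00549) and S100a13 (log2 fold change 0.71 ± 0.15, adjusted p = 0.00211) rose by less. S100a6 was the eighth (log2 fold change 0.87 ± 0.27, adjusted p = 0.0466). Lgals3 (adjusted p = 0.0613) and S100a13 (0.138) lost the call in the 9-library fit with each mouse as a block, and S100a6 (adjusted p = 0.0555) with each mouse as a block over all libraries. S100a6 (adjusted p = 0.0982) lost the call with the term for cell number, and S100a6 (adjusted p = 0.0911) and Vim (log2 fold change 0.53, under the fold minimum) with all 70 libraries. S100a6 lost it without any 1 of the 9 libraries (adjusted p = 0.0554 to 0.141). In ST2- Tregs 1 of the 20 was a DEG higher in blood, with a median of 0.43 against 0.62 in ST2+ Tregs, and none of the 20 was called in the interaction test, so the 2 populations were not shown to differ in these genes.

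Among 25 integrins and selectin ligands, 2 were higher and 1 was lower in blood. Itgb1, the integrin beta 1 chain, was at 1487, 1297, 1494 and 1299 CPM in blood and 719, 727, 797, 765 and 699 CPM in spleen (log2 fold change 0.91 ± 0.21, adjusted p = 0.00506), about the same in all libraries of 1 tissue. Itgb3, the beta 3 chain, which is also abundant in platelets, was at 131, 209, 158 and 194 CPM in blood and 40.2, 53.03, 28.1, 44.9 and 65.6 CPM in spleen (log2 fold change 1.90 ± 0.30, adjusted p = 2.29e-05). Itgb8, whose product pairs with integrin alpha V to activate TGF-beta, was at 5.32, 11.5, 12.9 and 1.36 CPM in blood and 97.8, 105, 50.3, 63.5 and 81.8 CPM in spleen (log2 fold change -3.34 ± 0.47, adjusted p = 1.82e-06). Itgb3 was highest in the blood of mouse 3 and lowest in that of mouse 2, the order of the platelet sum at its ends. In ST2+ Tregs its mean was 173 CPM in blood, 189 in lungs, 198 in visceral fat, 132 in colon and 82.1 in skin. The part of platelet RNA in the difference of Itgb3 was not tested. Of 32 genes of the cytoskeleton and motility list 30 had a positive fold change, with a median of 0.30, but 3 were DEGs, all higher in blood. Arpc3, a subunit of the actin-nucleating ARP2/3 complex, was at 237, 238, 141 and 219 CPM in blood and 122, 110, 111, 101 and 123 CPM in spleen (log2 fold change 0.88 ± 0.17, adjusted p = 5.62e-04). Was, an activator of that complex (log2 fold change 0.77 ± 0.24, adjusted p = 0.0485), and Zyx, the adhesion protein zyxin (log2 fold change 0.60 ± 0.18, adjusted p = 0.0445), were the other two. Itgb8 (adjusted p = 0.0516), Was (0.254) and Zyx (0.127) lost the call in the 9-library fit with each mouse as a block. Was (adjusted p = 0.101) and Zyx (log2 fold change 0.53, under the fold minimum) lost the call under voom, Was (adjusted p = 0.279) and Zyx (0.186) with the term for cell number, and Was (adjusted p = 0.0543) and Zyx (0.635) with all 70 libraries. Was lost it without the blood library of mouse 3 or 5, or the spleen library of mouse 2, 4 or 5 (adjusted p = 0.0747 to 0.309). Zyx lost it without the blood library of mouse 3 or 4, or the spleen library of mouse 2, 3, 4 or 5 (adjusted p = 0.0647 to 0.234).

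Of 17 chemokine receptors, 3 were higher and 2 lower in blood. Ccr2, which guides cells towards CCL2, was at 732, 701, 755 and 650 CPM in blood and 67.4, 94.8, 83.9, 167 and 129 CPM in spleen (log2 fold change 2.71 ± 0.46, adjusted p = 6.40e-05). Ccr3, the eotaxin receptor, was at 162, 50.9, 146 and 187 CPM in blood and 16.7, 5.16, 21.9, 33.6 and 13.8 CPM in spleen (log2 fold change 2.91 ± 0.72, adjusted p = 0.00903). Ccr10, a receptor for chemokines of skin and mucosal epithelium, was at 18.6, 207, 33.6 and 69.1 CPM in blood and 4.17, 0, 5.07, 3.61 and 11.3 CPM in spleen (log2 fold change 4.05 ± 1.12, adjusted p = 0.0234). All 3 lacked overlap, and Ccr2 was the most even across the blood libraries. Ccr10 was highest in the 55-cell library of mouse 3. Ccr8, a receptor of activated and tissue Tregs, was at 21.3, 2.55, 23.96 and 56.5 CPM in blood and 192, 209, 216, 174 and 162 CPM in spleen (log2 fold change -2.87 ± 0.36, adjusted p = 1.54e-07). Cxcr5, the receptor for the B cell follicle chemokine CXCL13, had no count in any of the 4 blood libraries and was at 43.2, 62.9, 19.9, 28.9 and 18.7 CPM in spleen (adjusted p = 3.01e-06). Taking 3 counts over the 4 blood libraries as the floor, 0.363 CPM, Cxcr5 was at least 95.5-fold lower in blood. Ccr4, Ccr6, Ccr7, Ccr9, Cxcr3, Cxcr4, Cxcr6 and Cx3cr1 were not called, with log2 fold changes between -1.75 (Ccr9) and 0.73 (Ccr6), apart from Cx3cr1, which did not exceed 0.706 CPM in any library. In blood, Ccr4 was at 170, 127, 139 and 157 CPM, Ccr6 at 153, 222, 113 and 138 CPM and Cxcr3 at 409, 300, 328 and 342 CPM, and each overlapped the spleen. Ccr3 (adjusted p = 0.0660) and Ccr8 (0.0515) lost the call in the 9-library fit with each mouse as a block. Ccr10 (adjusted p = 0.139) lost the call with the term for cell number. Ccr10 lost it without the blood library of mouse 3, or the spleen library of mouse 1, 2, 3 or 4 (adjusted p = 0.0502 to 0.147).

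Of 26 subunits, inhibitors and feedback genes of the NF-kB pathway, 7 were lower and 1 was higher in blood, 21 had a negative fold change, and the median was -0.36. Nfkbid, the atypical inhibitor IkappaBNS that acts in the nucleus, had the smallest adjusted p of all lower DEGs and was at 48.96, 9.76, 47.00 and 30.7 CPM in blood and 263, 290, 214, 211 and 216 CPM in spleen (log2 fold change -2.82 ± 0.27, adjusted p = 8.64e-11). Bcl3, a further nuclear IkappaB protein, was at 69.2, 40.8, 97.2 and 77.3 CPM in blood and 182, 209, 178, 182 and 180 CPM in spleen (log2 fold change -1.39 ± 0.19, adjusted p = 6.56e-07). Rel, the c-Rel subunit, which Treg development needs, was at 92.1, 47.96, 50.7 and 67.3 CPM in blood and 83.4, 170, 116, 148 and 118 CPM in spleen (log2 fold change -0.98 ± 0.23, adjusted p = 0.00418). Nfkbid and Bcl3 did not overlap, whereas the blood library of mouse 2 had more Rel than the spleen library of mouse 1. Traf2, an adaptor of TNF receptors (log2 fold change -0.86 ± 0.21, adjusted p = 0.00630), the subunit Relb (log2 fold change -1.15 ± 0.28, adjusted p = 0.00855), Nfkbiz (log2 fold change -0.79 ± 0.20, adjusted p = 0.00877) and the kinase Map3k8 (log2 fold change -1.33 ± 0.33, adjusted p = 0.00915) made up the rest. The exception was Tnfaip3, which encodes A20, a deubiquitinase that ends NF-kB signalling, at 859, 1189, 864 and 907 CPM in blood and 305, 465, 346, 451 and 265 CPM in spleen (log2 fold change 1.38 ± 0.17, adjusted p = 5.43e-08). It rose in blood while 7 other genes of the list fell. The list had 4 lower DEGs in the 9-library fit with the mouse as a block and 5 under voom. Rel (adjusted p = 0.0505), Nfkbiz (0.0977) and Map3k8 (0.149) lost the call in the 9-library fit with each mouse as a block. Rel (adjusted p = 0.107) and Map3k8 (0.114) lost the call under voom, Map3k8 (adjusted p = 0.0514) with the term for cell number, and Rel (adjusted p = 0.814) with all 70 libraries. Relb lost it without the blood library of mouse 3 or 5 (adjusted p = 0.0544 to 0.0732). Nfkbiz lost it without the blood library of mouse 5 (adjusted p = 0.0654). Map3k8 lost it without the blood library of mouse 3 (adjusted p = 0.0770). With all 70 libraries the log2 fold change of Rel was -0.17.

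Of 37 AP-1 and immediate early genes 11 were lower and 2 higher in blood, with a median of -0.50, and 12 did not overlap with blood lower. Egr2, a zinc finger factor induced by T cell receptor signals, had no count in any blood library and was at 172, 112, 56.6, 22.2 and 67.04 CPM in spleen, at least 237-fold lower in blood against the floor of 0.363 CPM (adjusted p = 0.000114). Egr1, of the same family, was at 3.73, 0.424, 5.07 and 18.1 CPM in blood and 73.5, 54.9, 44.9, 70.2 and 66.3 CPM in spleen (log2 fold change -3.17 ± 0.69, adjusted p = 0.00241). Nr4a1, the orphan receptor Nur77, whose level follows the strength of receptor signals, was at 19.7, 2.55, 17.97 and 12.2 CPM in blood and 133, 104, 116, 29.4 and 17.6 CPM in spleen (log2 fold change -2.63 ± 0.47, adjusted p = 1.81e-04). The spleen library of mouse 5 lay below the blood libraries of mice 2 and 4 for Nr4a1, whereas Egr1 and Egr2 did not overlap. Jun, a subunit of AP-1, was at 41.5, 56.03, 29.03 and 27.1 CPM in blood and 84.9, 432, 240, 255 and 107 CPM in spleen (log2 fold change -2.54 ± 0.47, adjusted p = 3.05e-04), and varied more among the spleen libraries than among the blood libraries. Dusp2, a phosphatase that acts on MAP kinases, was at 149, 177, 149 and 135 CPM in blood and 288, 439, 359, 439 and 329 CPM in spleen (log2 fold change -1.28 ± 0.21, adjusted p = 3.55e-05), and Ier5 at 174, 158, 114 and 82.7 CPM and 246, 336, 281, 300 and 289 CPM (log2 fold change -1.14 ± 0.19, adjusted p = 5.42e-05). Dusp6, Klf10, Gadd45b, Zfp36l1 and Nr4a2 fell too, with log2 fold changes of -2.74, -2.36, -1.33, -0.73 and -3.02. Klf6 (log2 fold change 0.99 ± 0.18, adjusted p = 1.47e-04) and Rgs2 (log2 fold change 1.22 ± 0.23, adjusted p = 3.93e-04), a regulator of G protein signalling, were the 2 that rose. What part the different handling of blood and spleen before the sort had in these differences was not tested. The list had 4 lower and 1 higher DEG in the 9-library fit with the mouse as a block, and 5 lower and 2 higher under voom. Egr1 (adjusted p = 0.0524), Nr4a1 (0.322), Dusp6 (0.233), Klf10 (0.144), Gadd45b (0.123), Zfp36l1 (0.258), Nr4a2 (0.315) and Rgs2 (0.0502) lost the call in the 9-library fit with each mouse as a block. Egr1 (adjusted p = 0.311), Nr4a1 (0.343), Jun (0.113), Dusp6 (0.101), Gadd45b (0.0565) and Nr4a2 (0.297) lost the call under voom, and Zfp36l1 (adjusted p = 0.128), Klf6 (0.0689) and Rgs2 (0.0841) with all 70 libraries. Gadd45b lost it without the blood library of mouse 3 (adjusted p = 0.0921). Nr4a2 lost it without the blood library of mouse 3 or 5, or the spleen library of mouse 2 (adjusted p = 0.0619 to 0.108).

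The stretches before the starts of 3 of these genes were read from RefSeq (GRCm38.p6) to show what stands before genes that moved in each direction: Egr2, the immediate early gene without a count in blood, Zfp36l1, an immediate early gene that encodes an RNA-binding protein promoting mRNA decay and that fell, and P2ry10, a recirculation gene that rose. Each is the 250 bases before the annotated start, 5′ to 3′ on the strand of the gene, with matches to the AP-1 motif TGANTCA on either strand in capitals. Zfp36l1 lies on the minus strand, Egr2 and P2ry10 on the plus strand.
Egr2, chr10:67535249-67535498: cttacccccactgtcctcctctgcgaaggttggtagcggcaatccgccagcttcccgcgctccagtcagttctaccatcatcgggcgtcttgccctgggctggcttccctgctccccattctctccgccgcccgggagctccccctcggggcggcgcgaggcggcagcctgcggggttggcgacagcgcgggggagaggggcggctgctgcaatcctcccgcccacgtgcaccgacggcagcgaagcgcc
Zfp36l1, chr12:80113014-80113263: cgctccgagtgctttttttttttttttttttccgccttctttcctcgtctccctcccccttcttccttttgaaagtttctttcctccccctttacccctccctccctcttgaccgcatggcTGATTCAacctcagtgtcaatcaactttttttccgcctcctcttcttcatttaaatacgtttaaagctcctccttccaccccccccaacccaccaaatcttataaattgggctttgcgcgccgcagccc
P2ry10, chrX:107088242-107088491: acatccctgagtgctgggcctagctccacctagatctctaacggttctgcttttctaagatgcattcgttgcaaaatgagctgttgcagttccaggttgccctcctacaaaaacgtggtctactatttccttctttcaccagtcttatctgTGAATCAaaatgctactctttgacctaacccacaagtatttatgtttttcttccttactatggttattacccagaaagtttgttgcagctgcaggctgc
Zfp36l1 and P2ry10 each held 1 match to the AP-1 motif, and Egr2 held none. Zfp36l1 was the 1 gene with a match among 11 DEGs of the AP-1 and immediate early list. P2ry10 was the 1 gene with a match among 6 DEGs of the recirculation list, so neither stands for its list. Over the 10360 tested genes with such a sequence, 4.22% held the motif, against 5.31% of 207 DEGs higher and 4.76% of 210 DEGs lower in blood. A match describes letters and is not a bound site.

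On the spleen side the DEGs with the smallest adjusted p among those without overlap were Nfkbid, Tnfrsf9, Ccr8, Cd83, Bcl3, Cst7, Itgb8, Cxcr5, Cd81, Tnfrsf1b, Alkbh6 and Hivep3. Cst7, which encodes the protease inhibitor cystatin F, was at 76.6, 26.7, 105 and 89.5 CPM in blood and 234, 247, 271, 268 and 256 CPM in spleen (log2 fold change -1.78 ± 0.24, adjusted p = 8.69e-07). Cd81, a tetraspanin, was at 152, 180, 139 and 119 CPM in blood and 324, 338, 367, 353 and 329 CPM in spleen (log2 fold change -1.22 ± 0.18, adjusted p = 4.46e-06). Both were lowest in a blood library, of mouse 3 for Cst7 and of mouse 5 for Cd81. Hivep3, a zinc finger protein, had a log2 fold change of -2.12 and Alkbh6, of the AlkB dioxygenase family, one of -1.22.

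Of 22 Treg identity genes 6 were lower in blood and none was higher, with a median of -0.32, and 8 lay lower in every blood library than in any spleen library. Tnfrsf9, the costimulatory receptor 4-1BB, was at 36.2, 130, 79.3 and 21.7 CPM in blood and 409, 456, 415, 486 and 446 CPM in spleen (log2 fold change -2.72 ± 0.31, adjusted p = 2.57e-08). Cd83, which stabilises surface molecules of activated lymphocytes, was at 68.1, 50.5, 63.1 and 58.8 CPM in blood and 396, 521, 412, 472 and 442 CPM in spleen (log2 fold change -2.90 ± 0.38, adjusted p = 5.64e-07). Tnfrsf1b, the TNF receptor 2 of Tregs, was at 139, 76.4, 230 and 102 CPM in blood and 629, 500, 642, 440 and 495 CPM in spleen (log2 fold change -1.99 ± 0.29, adjusted p = 5.09e-06). The groups stood far apart for all 3. Il2ra, the alpha chain of the IL-2 receptor, was at 225, 231, 218 and 283 CPM in blood and 487, 453, 459, 405 and 390 CPM in spleen (log2 fold change -0.87 ± 0.17, adjusted p = 6.50e-04). Il2rb, the beta chain, was at 332, 458, 307 and 312 CPM in blood and 674, 615, 669, 476 and 560 CPM in spleen (log2 fold change -0.77 ± 0.17, adjusted p = 0.00393). Izumo1r, the folate receptor 4 of Tregs, was at 346, 212, 242 and 298 CPM in blood and 551, 649, 645, 647 and 622 CPM in spleen (log2 fold change -1.18 ± 0.22, adjusted p = 2.35e-04). Of 20 members of the TNF receptor superfamily 3 were lower, Tnfrsf9, Tnfrsf1b and Tnfrsf8 (log2 fold change -4.46 ± 1.40, adjusted p = 0.0485), and none higher. Tnfrsf8 (adjusted p = 0.175) lost the call in the 9-library fit with each mouse as a block. Tnfrsf8 (adjusted p = 0.162) lost the call with the term for cell number. Tnfrsf8 lost it without the blood library of mouse 3, 4 or 5, or the spleen library of mouse 1, 2, 3 or 5 (adjusted p = 0.0579 to 0.151).

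Effector genes went both ways. Of 25 suppressive and repair effectors, 3 were lower and 2 higher in blood, the latter the galectins given above, and the median was -0.09. Il10, the anti-inflammatory cytokine, was at 8.51, 0.849, 3.23 and 4.97 CPM in blood and 33.3, 30.04, 47.2, 43.9 and 61.04 CPM in spleen (log2 fold change -3.33 ± 0.51, adjusted p = 1.01e-05). Penk, which encodes the opioid precursor proenkephalin, was at 25.01, 0.849, 6.45 and 33.9 CPM in blood and 383, 437, 418, 472 and 442 CPM in spleen (log2 fold change -4.71 ± 0.89, adjusted p = 3.22e-04). The third was Itgb8. Of 14 genes listed under inhibitory receptors, Pdcd1, Cd200 and Lag3 were lower. Cd226, which encodes an activating receptor and not an inhibitory one, was higher. Pdcd1, the inhibitory receptor PD-1, was at 22.4, 13.2, 188 and 84.05 CPM in blood and 434, 613, 518, 471 and 444 CPM in spleen (log2 fold change -2.69 ± 0.44, adjusted p = 3.55e-05), and the blood library of mouse 4 was the highest of its group. Cd200, the ligand of an inhibitory receptor on myeloid cells, was at 28.7, 31.8, 82.02 and 45.2 CPM in blood and 172, 209, 186, 182 and 145 CPM in spleen (log2 fold change -1.93 ± 0.41, adjusted p = 0.00189). Lag3 had an adjusted p of 0.0480 and Cd226 one of 0.0401. Il10 (adjusted p = 0.0683), Pdcd1 (0.0515), Lag3 (0.294) and Cd226 (0.0675) lost the call in the 9-library fit with each mouse as a block. Il10 (adjusted p = 0.167) and Penk (0.0529) lost the call under voom, and Lag3 (adjusted p = 0.127) and Cd226 (0.0694) with the term for cell number. Lag3 lost it without the blood library of mouse 2, 3 or 4, or the spleen library of mouse 1, 2, 3, 4 or 5 (adjusted p = 0.0544 to 0.140). Cd226 lost it without the blood library of mouse 2, 3 or 5, or the spleen library of mouse 1, 2, 3, 4 or 5 (adjusted p = 0.0544 to 0.154). Among 22 transcription factors of tissue Tregs, Rora, a nuclear receptor, was higher at 644, 634, 663 and 624 CPM in blood and 285, 273, 242, 314 and 332 CPM in spleen (log2 fold change 1.15 ± 0.29, adjusted p = 0.0112), and Stat3 (log2 fold change -0.62 ± 0.15, adjusted p = 0.00722), Bcl6 (log2 fold change -3.54 ± 0.90, adjusted p = 0.0108) and Rbpj (log2 fold change -1.36 ± 0.35, adjusted p = 0.0112) were lower. Stat3 (adjusted p = 0.0526), Bcl6 (0.313) and Rbpj (0.331) lost the call in the 9-library fit with each mouse as a block. Rbpj (adjusted p = 0.0996) lost the call under voom, Rbpj (adjusted p = 0.0653) with the term for cell number, and Rora (adjusted p = 0.187) with all 70 libraries. Stat3 lost it without the blood library of mouse 2 or 5, or the spleen library of mouse 3 (under the fold minimum, log2 fold change -0.58, -0.55 and -0.54). Bcl6 lost it without the blood library of mouse 3 (adjusted p = 0.0609). Rbpj lost it without the blood library of mouse 3 or 5 (adjusted p = 0.0801 to 0.0839).

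Of 26 genes listed under common gamma chain receptors and STAT feedback, 6 were lower and 2 higher in blood, with a median of -0.24. The 6 include Il2ra and Il2rb, which are also counted among the Treg identity genes above. The list also held Ifngr1, which belongs to neither group. Cish, a target and inhibitor of STAT5, was at 139, 177, 181 and 148 CPM in blood and 362, 325, 345, 325 and 297 CPM in spleen (log2 fold change -1.03 ± 0.18, adjusted p = 1.14e-04). Bcl2, the survival factor, was at 163, 111, 176 and 137 CPM in blood and 214, 316, 260, 403 and 246 CPM in spleen (log2 fold change -0.97 ± 0.30, adjusted p = 0.0451). Neither overlapped. Jak3 (log2 fold change -1.13 ± 0.31, adjusted p = 0.0231) and Socs1 (log2 fold change -0.77 ± 0.21, adjusted p = 0.0219) were lower as well. Ifngr1, a chain of the interferon gamma receptor, was higher, at 930, 721, 813 and 759 CPM in blood and 398, 520, 412, 516 and 509 CPM in spleen (log2 fold change 0.78 ± 0.14, adjusted p = 1.25e-04), as was the kinase Pim1 (log2 fold change 0.69 ± 0.19, adjusted p = 0.0210). Socs1 (adjusted p = 0.205) and Pim1 (0.381) lost the call in the 9-library fit with each mouse as a block. Pim1 (adjusted p = 0.0977) lost the call under voom, Bcl2 (adjusted p = 0.114), Jak3 (0.0818) and Pim1 (0.221) with the term for cell number, and Bcl2 (adjusted p = 0.481) with all 70 libraries. Bcl2 lost it without the blood library of mouse 2, 3 or 5, or the spleen library of mouse 2, 3 or 4 (adjusted p = 0.0607 to 0.167). Jak3 lost it without the blood library of mouse 5, or the spleen library of mouse 1 or 3 (adjusted p = 0.0562 to 0.0980). Socs1 lost it without the blood library of mouse 2 or 4, or the spleen library of mouse 1 (adjusted p = 0.0629 to 0.119). Pim1 lost it without the blood library of mouse 3, or the spleen library of mouse 1, 4 or 5 (adjusted p = 0.0518 to 0.160). Of 35 interferon-stimulated genes 3 were lower and none higher. Irf1 was at 356, 364, 281 and 352 CPM in blood and 513, 541, 570, 545 and 511 CPM in spleen (log2 fold change -0.67 ± 0.12, adjusted p = 2.53e-04), and Gbp4 differed by -0.79 ± 0.19 (log2, SE). Of 31 genes of T cell receptor signalling, Cd28, the costimulatory receptor, was higher (log2 fold change 0.71 ± 0.13, adjusted p = 1.32e-04), and Nfatc1 (log2 fold change -0.84 ± 0.19, adjusted p = 0.00417), Spry1 (log2 fold change -2.87 ± 0.49, adjusted p = 6.40e-05) and Ubash3a (log2 fold change -0.65 ± 0.16, adjusted p = 0.00844) were lower. Spry1 (adjusted p = 0.185) and Ubash3a (0.0834) lost the call in the 9-library fit with each mouse as a block. Irf1 (log2 fold change -0.52, under the fold minimum) lost the call with all 70 libraries. Ubash3a lost it without the blood library of mouse 5 (adjusted p = 0.0801).

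**Figure D4:**
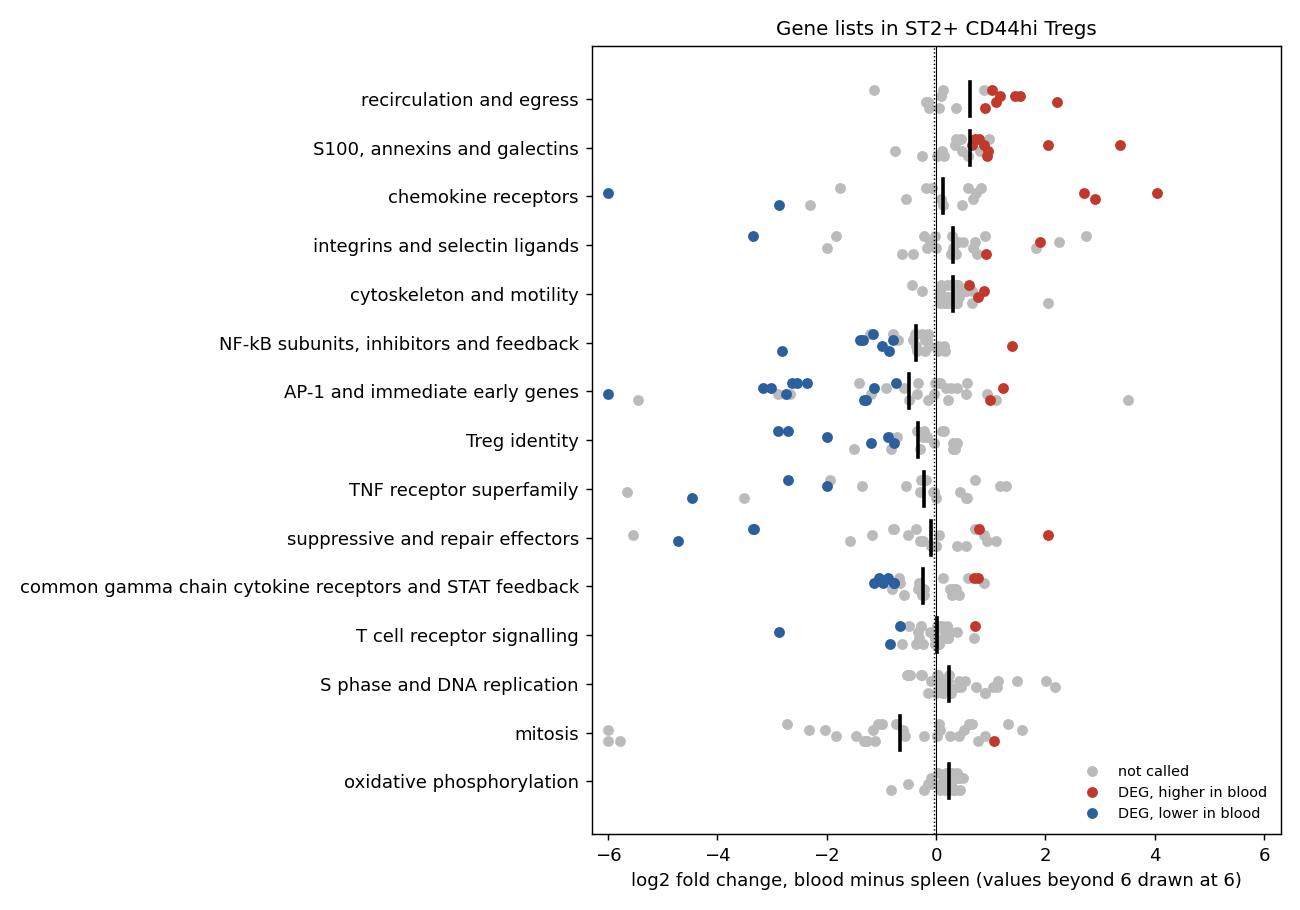
Log2 fold change of blood over spleen (x axis) for the genes of 15 lists in ST2+ CD44hi Tregs (rows), with DEGs higher in blood in red, lower in blue and genes not called in grey; black bars are list medians and the dotted line the median of all genes, -0.05. Recirculation and S100, annexin and galectin genes lie mostly right of 0 and NF-kB, immediate early and Treg identity genes mostly left of it.

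None of 32 S phase genes was a DEG, and the median was 0.23. Of 32 mitosis genes 1 was a DEG, with a median of -0.66. That gene, Cenpa, the centromeric histone, was at 194, 279, 196 and 241 CPM in blood and 115, 168, 96.00, 76.4 and 90.7 CPM in spleen (log2 fold change 1.06 ± 0.24, adjusted p = 0.00304). Cenpa (adjusted p = 0.0658) lost the call in the 9-library fit with each mouse as a block. Cenpa (adjusted p = 0.0543) lost the call with all 70 libraries. Mki67, named here after its values were seen, was at 77.7, 57.7, 60.4 and 143 CPM in blood and 17.8, 61.95, 35.5, 26.9 and 28.6 CPM in spleen and was not called (log2 fold change 1.31 ± 0.64, adjusted p = 0.250). The blood library of mouse 5 was the highest, and the spleen library of mouse 2 overlapped the blood. No DEG was found among 33 oxidative phosphorylation, 19 glycolysis or 8 GIMAP genes, with medians of 0.24, -0.17 and -0.12. Of 26 sterol and fatty acid synthesis genes 1 was a DEG, the sterol isomerase Ebp, at 277, 234, 226 and 324 CPM in blood and 150, 140, 148, 156 and 175 CPM in spleen (log2 fold change 0.79 ± 0.17, adjusted p = 0.00154).

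The difference between blood and spleen was then compared with that in ST2- CD44hi Tregs of the same mice (5 libraries each), to see which genes differed by tissue in ST2+ Tregs in another way. ST2- Tregs had 445 DEGs, 3.38% of the genes tested. Of the 542 DEGs of ST2+ Tregs, 155 were called in the same direction in ST2- Tregs, 28.6% of the former and 34.8% of the latter, and none was called in the opposite direction. By sign alone, called or not, 480 of the 542 went in the same direction in ST2- Tregs. The share of same signs over all genes tested was not computed. Tnfaip3 (log2 fold change 1.76 in ST2- Tregs), P2ry10 (1.58), Klf2 (1.67), Ccr2 (2.46), Nfkbid (-1.92), Tnfrsf9 (-2.38), Cd83 (-3.90) and Ccr8 (-3.66) were among the genes that were called in both. In the test of the interaction 13 genes were called, 0.0987% of the genes tested, of which 4 had the more positive difference in ST2+ Tregs and 9 the more negative.

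Cxcr5 was absent from ST2+ Tregs of the blood but at 125, 129, 71.1, 77.5 and 68.5 CPM in ST2- Tregs of the blood (mice 1 to 5) and 202, 175, 173, 186 and 201 CPM in ST2- Tregs of the spleen, and the interaction had an adjusted p of 0.0127. Il2ra, lower in blood in ST2+ Tregs, was at 403, 590, 496, 413 and 394 CPM in blood and 367, 361, 383, 505 and 370 CPM in spleen in ST2- Tregs (interaction -1.08 ± 0.23 on the log2 scale, adjusted p = 0.0349). The ST2- ranges overlapped, while every ST2+ blood library lay below every ST2+ spleen library. Satb1, a chromatin organiser, was at 111, 209, 125 and 108 CPM in blood and 250, 226, 240, 209 and 153 CPM in spleen in ST2+ Tregs and at 722, 699, 701, 804 and 411 CPM and 142, 180, 156, 162 and 126 CPM in ST2- Tregs (interaction -2.76 ± 0.57 on the log2 scale, adjusted p = 0.0349). It was higher in blood in ST2- Tregs. Foxn3, a forkhead factor, was likewise at 507, 517, 472, 448 and 324 CPM in blood and 279, 276, 216, 285 and 228 CPM in spleen in ST2- Tregs but at 244, 244, 246 and 230 CPM and 202, 307, 219, 289 and 293 CPM in ST2+ Tregs (interaction -0.94 ± 0.20 on the log2 scale, adjusted p = 0.0349).

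Nfil3, a basic leucine zipper factor induced by cytokines, was at 116, 154, 142 and 111 CPM in blood and 118, 140, 93.7, 59.4 and 68.8 CPM in spleen in ST2+ Tregs, and fell in ST2- Tregs from 168, 103, 119, 75.01 and 69.6 CPM in spleen to 17.99, 1.25, 18.03, 36.7 and 63.2 CPM in blood (interaction 2.41 ± 0.46 on the log2 scale, adjusted p = 0.0127). Areg, the growth factor amphiregulin that Tregs use in repair, was at 13.3, 22.5, 12.4 and 73.2 CPM in blood and 31.1, 40.8, 38.2, 28.4 and 22.2 CPM in spleen in ST2+ Tregs, and at 0.439, 2.50, 4.87, 3.06 and 1.75 CPM and 8.23, 15.1, 26.96, 19.5 and 27.8 CPM in ST2- Tregs (interaction 2.86 ± 0.62 on the log2 scale, adjusted p = 0.0349). Both genes kept overlapping levels between blood and spleen in ST2+ Tregs and were lower in blood in ST2- Tregs. Neu3, a sialidase (interaction 2.41 ± 0.54 on the log2 scale, adjusted p = 0.0425), followed the same course, with -2.51 in ST2- Tregs and -0.10 in ST2+ Tregs on the log2 scale. Ctsa, a lysosomal protease, was at 475, 497, 442 and 415 CPM in blood and 349, 320, 299, 339 and 302 CPM in spleen in ST2+ Tregs (interaction 0.75 ± 0.17 on the log2 scale, adjusted p = 0.0444).

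**Figure D5:**
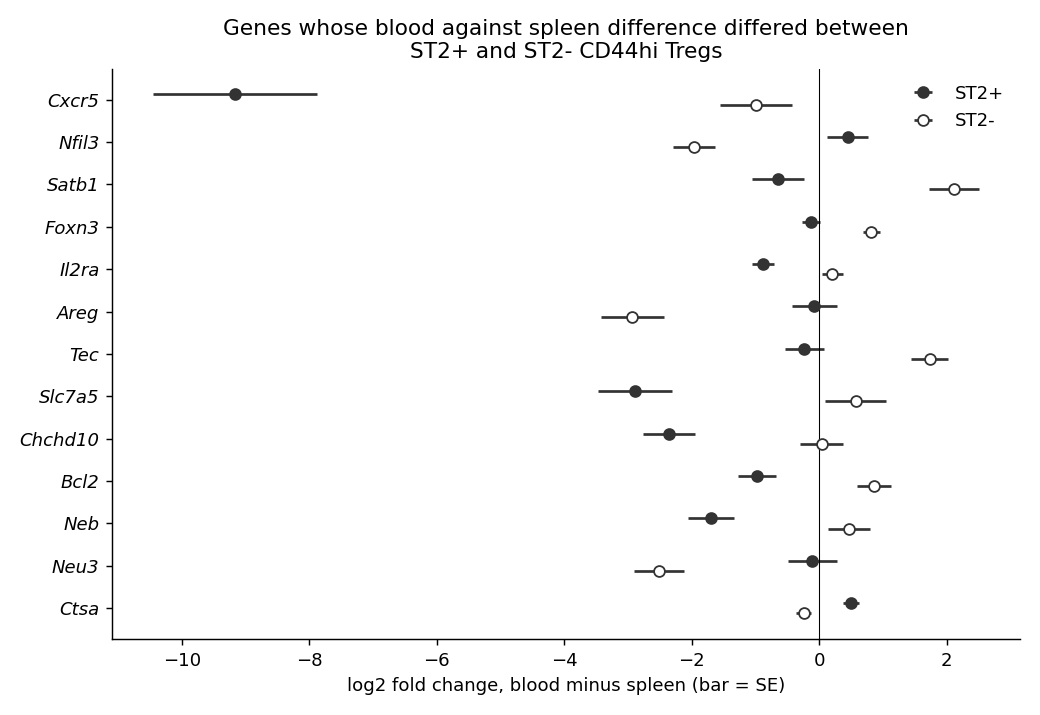
Log2 fold change of blood over spleen with its standard error in ST2+ (filled) and ST2- (open) CD44hi Tregs for the 13 genes called in the interaction test. Cxcr5 lies furthest below 0, in ST2+ Tregs, where no blood library had a count, and Nfil3, Areg and Neu3 lie furthest below 0 in ST2- Tregs.

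The interaction call of Cxcr5 held under all 33 alternatives tried, and those of the other named genes under 10 (Neu3) to 28 (Nfil3) of 33. Without the ST2- blood library of mouse 1, Cxcr5 was the 1 gene called. The genes with the most counts took a small share of each library, with 4.17% to 5.57% of the counts in the 50 most counted genes, and the sources used here do not say how reads that share a start were handled. Whether this narrowed the folds of abundant genes was not tested.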

How the data were processed

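RNA of sorted Tregs was amplified with SMART-Seq v4, made into NexteraXT libraries and sequenced on a HiSeq2500 as 58-base single reads. The deposited table holds raw counts per gene, which the authors made by trimming reads, aligning them with STAR to GRCm38 and counting with HTSeq (CASAVA 1.8.2 and HTSeq 0.4.1 per the submitters' processing notes). Groups came from the sample titles and characteristics. As in the study's methods, libraries over 1000000 counts were kept, and a protein-coding gene was tested if it reached 1 CPM in 10% of the kept libraries. The study also set limits on the percent aligned and on the variation of gene coverage, which were not applied here. Gene symbols came from GENCODE M21.

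TMM factors were computed over all genes, and all 67 kept libraries of 14 groups were fitted with 1 term per group by edgeR 4.0.16 (glmQLFit and glmQLFTest, R 4.3.3), from which the contrasts were taken. Standard errors are the fold change over the root of F. Alternatives used limma 3.58.1 with voom and DESeq2 1.42.0. On counts simulated for the blood against spleen comparison over 13173 genes, with 200 genes changed, edgeR called 25% of those changed 2-fold and 62% of those changed 4-fold, with 2 false calls. The 2 populations came from the same mice, so libraries pair by mouse. Over 9013 genes of at least 10 CPM, the deviations of same-mouse libraries correlated with r between -0.07 and 0.04 (4 pairs). No 2 libraries of a group held identical counts, and their counts differed beyond sampling noise.

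Named genes were, for each direction, the 12 DEGs of lowest adjusted p among those without overlap and the 4 genes of lowest adjusted p in the interaction, DEGs of the gene lists, the markers of the sort and 14 chemokine receptors; others are marked, and a few genes these rules name are not reported here. The members and the lists were chosen with earlier results of these data known. Counting intervals were not computed, since the spread is taken between mice. Promoters came from RefSeq (GRCm38.p6), matched by symbol for 10360 of 13173 genes.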

Additional observations from a re-analysis of the deposited data

Results flagged for a closer look

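A single library stood apart from the others of its group in 21 of 286 groups of values looked at, 11 in blood and 10 in spleen. The mark was a gap to its nearest neighbour that took most of the range of the group. Chance gives about 1 in 20 for values that vary smoothly. That rate does not hold for genes at 0 counts in all libraries but 1, where the gap takes the whole range in any case. The blood library of mouse 3, made from 55 cells, was high for Tnfaip3 (1189 against a median of 886 CPM, gap over range 0.856) and Il2rb (458 against 322 CPM, 0.833). In blood, mouse 2 was high for S100a6 (338 against 281 CPM, 0.869), Vim (742 against 655 CPM, 0.875) and Cd3g (579 against 474 CPM, 0.834). Mouse 4 was low for Irf1 (281 against 354 CPM, 0.853) and high for Gbp4 (300 against 240 CPM, 0.929). Mouse 5 was high for Areg (73.2 against 17.9 CPM, 0.835) and for the summed dendritic cell and MHC class II markers (458 against 241 CPM, 0.846), and it was the 1 blood library with a count of Lag3 (0.452 CPM) and of Zbtb46 (1.81 CPM), each with a gap over range of 1.

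In spleen, mouse 2 was high for Bcl3 (209 against 182 CPM, 0.873) and Nr4a2 (34.3 against 8.26 CPM, 0.804), mouse 3 was high for Gpr132 (53.1 against 26.8 CPM, 0.812), mouse 1 was low for Izumo1r (551 against 645 CPM, 0.725) and mouse 5 was high for Lyz2 (11.6 CPM against a median of 0, 0.956). Hbb-bs (0.469 CPM), Itga2b (4.69 CPM) and Gp1bb (0.469 CPM) had counts in the spleen library of mouse 2 and in no other, and Ppbp (3.79 CPM) and Pf4 (3.03 CPM) in that of mouse 1, each with a gap over range of 1.

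The difference between blood and spleen was not the same in ST2+ and ST2- CD44hi Tregs for 13 genes by edgeR's interaction test, and 1193 genes had an unadjusted p under 0.05. The difference of the log2 fold changes, ST2+ minus ST2-, was -8.17 for Cxcr5, where the size rests on groups at 0 counts, 2.41 for Nfil3, -2.76 for Satb1, -0.94 for Foxn3, -1.08 for Il2ra, 2.86 for Areg, 2.41 for Neu3 and 0.75 for Ctsa. It was -1.97 for Tec, a kinase of T cell receptor signalling, -3.46 for Slc7a5, a transporter of large amino acids, -2.40 for Chchd10, a mitochondrial protein, -1.83 for Bcl2 and -2.17 for Neb. Slc7a5 was at 7.45, 0, 5.53 and 4.07 CPM in ST2+ Tregs of blood and 76.2, 16.4, 35.1, 12.4 and 17.3 CPM in those of spleen, and at 52.2, 15.6, 40.4, 18.4 and 16.97 CPM and 24.7, 23.4, 17.8, 21.1 and 9.84 CPM in ST2- Tregs. Chchd10 was at 3.73, 3.82, 2.77 and 4.97 CPM and 17.4, 20.6, 19.9, 18.6 and 22.2 CPM in ST2+ Tregs of blood and spleen and at 38.2, 43.8, 42.9, 33.7 and 40.4 CPM and 37.8, 38.5, 35.6, 43.1 and 37.95 CPM in ST2- Tregs.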

How the results depend on the processing

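The 110 named DEGs kept their direction under all 23 alternatives, and 23 of them were called under each. In the 9 libraries alone 22 lost the call, all of them among the 48 that lost it there with the block. DESeq2 lost 7 platelet and erythroid genes, voom 18 genes, the cell number term 18 and all 70 libraries 17. Without the gene filter, and with all gene types, the same 9 were lost (Bcl2, Cd226, Ddit3, Lag3, Pmaip1, S100a6, Tnfrsf8, Was and Zyx). For the 542 DEGs, DESeq2 called 827 (490 lower), a test against a 1.5-fold minimum 101 (34 higher, 67 lower), a term for the number of sorted cells 339 (171 and 168), the 9 libraries alone 378 (178 lower) and the 9 libraries with each mouse as a replicate block 153 (94 and 59). With the mouse as a block over all libraries 562 were called, and among the named genes the calls of Ddit3, S100a6 and Pmaip1 were lost. That block moved the median log2 fold change of all genes to -0.12, the 9 libraries with the block to -0.16 and all 70 libraries to -0.15. Leaving out 1 library gave 349 to 624 DEGs (187 to 256 higher, 153 to 368 lower), with 349 without the blood library of mouse 3, 182 lower without that of mouse 2 and 624 without that of mouse 4. Factors from the tested genes only, added after seeing the data, gave 573.

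For the 13 interaction genes (4 and 9), voom called 47 (18 and 29), DESeq2 99 (44 and 55), the 1.5-fold minimum 1 (0 and 1), the mouse block 18 (7 positive), the 4 groups alone 17 (1 and 16), with the mouse block 26 (2 and 24), the cell number term 6 (2 and 4), CD44hi libraries 2 (1 and 1), all 70 libraries 3 (0 and 3), no gene filter 10 (2 positive) and all gene types 9 (2 positive). Leaving out 1 library gave 1 to 30 (0 to 15 and 1 to 15): 1 without the ST2- blood library of mouse 1, 30 without that of mouse 5, 6 without the ST2+ blood library of mouse 3, 20 without that of mouse 4, and 2 to 6 without any spleen library but ST2+ mouse 1, or the ST2- blood library of mouse 2. The cause of these moves was not tested. With 4 and 5 libraries, 2-fold changes were mostly missed in the simulation, so an uncalled gene is not shown to be equal.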

Other observations

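Genes of ribosome assembly in the nucleolus, picked after their values were seen and so given without a test of their own as a group, were among the DEGs lower in blood. Nop2, a methyltransferase of ribosomal RNA, was at 79.3, 46.3, 59.9 and 28.02 CPM in blood and 152, 168, 122, 97.1 and 121 CPM in spleen (log2 fold change -1.31 ± 0.29, adjusted p = 0.00255). Ppan was at 63.3, 36.1, 38.7 and 13.6 CPM in blood and 127, 129, 111, 71.8 and 99.5 CPM in spleen (log2 fold change -1.51 ± 0.34, adjusted p = 0.00319). Nolc1 (log2 fold change -1.01 ± 0.22, adjusted p = 0.00290), Gnl3 (log2 fold change -1.02 ± 0.24, adjusted p = 0.00510), Grwd1 (log2 fold change -2.27 ± 0.54, adjusted p = 0.00594), Nop58 (log2 fold change -0.66 ± 0.16, adjusted p = 0.00630) and Noc2l (log2 fold change -0.87 ± 0.21, adjusted p = 0.00730) were lower too. Every blood library lay below every spleen library for Nop2, Ppan, Nolc1, Grwd1, Nop58 and Noc2l, and Gnl3 overlapped. Nop2 (adjusted p = 0.0660), Ppan (0.102), Nolc1 (0.0839), Gnl3 (0.205), Grwd1 (0.177), Nop58 (0.215) and Noc2l (0.352) lost the call in the 9-library fit with each mouse as a block. Nop2 (adjusted p = 0.191) lost the call with all 70 libraries. Nop58 lost it without the spleen library of mouse 1 (under the fold minimum, log2 fold change -0.55). Noc2l lost it without the blood library of mouse 3 (adjusted p = 0.0686).

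The genes Tnf, Lta, Fasl and Tnfsf11, of the TNF ligand family, were picked in the same way and do not stand for that family. Tnf was at 4.79, 0, 13.4 and 4.97 CPM in blood and 61.00, 42.7, 88.2, 38.7 and 74.8 CPM in spleen (log2 fold change -3.40 ± 0.66, adjusted p = 4.80e-04). Lta, lymphotoxin alpha, was at 50.5, 16.1, 29.5 and 24.4 CPM in blood and 111, 101, 114, 115 and 90.7 CPM in spleen (log2 fold change -1.82 ± 0.52, adjusted p = 0.0254). Fasl (log2 fold change -2.21 ± 0.63, adjusted p = 0.0273), the death ligand, and Tnfsf11 (log2 fold change -1.76 ± 0.45, adjusted p = 0.0112), which encodes RANKL, were lower in every blood library than in any spleen library. Among genes higher in blood were Emb, a membrane glycoprotein that partners monocarboxylate transporters (log2 fold change 1.23 ± 0.19, adjusted p = 1.73e-05), Lmna, which encodes lamin A (log2 fold change 2.08 ± 0.42, adjusted p = 9.96e-04), and Cd55, a complement regulator (log2 fold change 1.29 ± 0.29, adjusted p = 0.00391). Tnf (adjusted p = 0.150), Fasl (0.112), Tnfsf11 (0.0660) and Cd55 (0.0660) lost the call in the 9-library fit with each mouse as a block. Fasl (adjusted p = 0.194) lost the call under voom, Lta (adjusted p = 0.166) and Fasl (0.0846) with the term for cell number, and Cd55 (adjusted p = 0.133) with all 70 libraries. Lta lost it without the blood library of mouse 3, 4 or 5 (adjusted p = 0.0513 to 0.115). Fasl lost it without the blood library of mouse 2 or 3, or the spleen library of mouse 1 (adjusted p = 0.0576 to 0.109). Tnfsf11 lost it without the blood library of mouse 5 (adjusted p = 0.0676). Gata3 (log2 fold change 0.10 ± 0.14, adjusted p = 0.770), a factor of ST2+ Tregs, Klrg1 (log2 fold change 0.05 with an adjusted p of 1.0) and Batf (log2 fold change -0.34 ± 0.17, adjusted p = 0.286) were not called. Irf4 was not called either (log2 fold change -0.44 ± 0.66, adjusted p = 0.803). In ST2- Tregs, Batf, Irf4 and Klrg1 were called lower in blood, with log2 fold changes of -1.15, -3.60 and -2.04, but the interaction was called for none of them (adjusted p = 0.205, 0.231 and 0.336), so a difference between ST2+ and ST2- Tregs was not shown.

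The blood library of mouse 1 that was left out, with 488666 counts, is a value apart from the comparison. By CPM of its total counts it lay on the blood side of the midpoint of both means for 231 of the 281 DEGs lower in blood. It did so for 96 of the 261 higher in blood, and 156 of the 281 had no count in it. Only 5735 protein-coding genes had a count in it, against 9736 to 11415 in the kept ST2+ blood libraries. A gene without a count falls on the blood side for any lower DEG and on the spleen side for any higher DEG. The 231 and the 96 therefore cannot tell likeness to the other blood libraries from lost transcripts.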
